A study of Homo sapiens with 17 samples.

Results

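Collagen and laminin genes were described in HEK293T cells, a human embryonic kidney line, after knockdown of TDP43. The members were all gene symbols of the count table that consist of COL, a number, A and a number, or of LAM, A, B or C and a number. There were 55 such genes, 43 collagens and 12 laminins, and each had at least 1 count, among 19180 genes with counts and 23368 genes in the table. COL27A1, a fibrillar collagen gene, was the marker given with the set, and its level in every library is given with each comparison. COL26A1 was not analysed here.

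Collagens are made of alpha chains that wind around each other into a helix, and the chains of one molecule are often encoded by different genes. Fibrillar collagens build the fibrils of connective tissue, type IV collagens form the network of basement membranes, and the FACIT collagens sit on the surface of fibrils. Type VI collagen forms beaded filaments, type VII collagen anchors the epidermis to the dermis, and the transmembrane collagens span the plasma membrane. Laminins are joined from an alpha, a beta and a gamma chain and start the assembly of basement membranes, which cells bind through integrins and dystroglycan. Kidney epithelia rest on basement membranes of type IV collagen and laminin, whereas most connective tissue fibrils are made by fibroblasts.

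The study followed N4-acetylcytidine (ac4C), a modified cytidine, in poly(A) RNA by acRIP-seq, the sequencing of RNA bound by an antibody to ac4C. There were cells labelled WT, for which no control siRNA is named, and cells that received an siRNA to TDP43, the RNA-binding protein made from TARDBP (labelled siTDP43). From both kinds of cell came input RNA, the anti-ac4C immunoprecipitate (IP) and a mock precipitate with immunoglobulin G (IgG). Each group had 3 libraries except WT IgG, which had 2. Because the WT label names no control siRNA, transfection, knockdown and any batch of culture or library cannot be told apart in comparisons between WT and siTDP43.

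The library totals of WT were 27718784 to 36583436 counts for input, 19615316 to 21066215 for IP and 9022250 to 9466855 for IgG. Those of siTDP43 were 24542434 to 31030950 counts for input, 8610070 to 15736165 for IP and 3013989 to 3436811 for IgG. TARDBP, the targeted gene, was at 150, 157 and 151 CPM, counts relative to the TMM-scaled library total, in WT input and at 98.6, 102 and 106 CPM in siTDP43 input, a log2 change of -0.57 (adjusted p = 6.55e-13). CPM is a share of a library. Per the methods, the RNA of IP and IgG was too little to quantify, and a fixed volume was amplified for each library. Folds between IP, IgG and input therefore compare shares of libraries and not amounts of RNA recovered. Replicates of a group differed by more than counting noise. Nothing in the labels says that they were separate cultures, so p-values measure only the spread between these libraries, which may be technical.

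The sequences below are shown because the study searched acetylated and TDP43-bound RNA for short motifs. They mark where those letters lie in some of the members that are called enriched over both controls below. COL7A1, COL18A1 and LAMB1 were so called in WT, and COL6A2, LAMA5 and COL23A1 in siTDP43. Members not so called held the motifs too. The study reports TCCCAGCT, written with U for T, for its ac4C peaks in WT cells and TGTGCG as a motif preferred by TDP43. For siTDP43 cells it reports a different motif, UAGCYRGG (Y is C or U, R is A or G), which was not searched here. The motif TCCCAGCT was found in the exons of 15 of the 55 members (27.3%), against 18.7% of all genes with counts, and the motif TGTGCG in 24 (43.6%) against 29.2%. Members were longer, with a median of 6174 exon bases against 2781, and per kilobase of exon the members held 0.0455 matches of TCCCAGCT against 0.0693 over all genes and 0.125 matches of TGTGCG against 0.121. Among the 12 laminin genes 10 held TGTGCG (83.3%), or 0.175 matches per kilobase, while COL27A1 held neither motif. Only the transcript strand was searched, each motif was counted on its own whether or not it touched the other, and a match is a description of letters, not a binding or acetylation site. The windows are read from hg19 in the direction of the transcript, 5′ to 3′, with the motif in capitals.

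COL7A1, chr3:48602876-48602905, minus strand, coding exon: acactgccggcTCCCAGCTccatgctgtgc
COL18A1, chr21:46931028-46931057, plus strand, coding exon: gagctgctgttTCCCAGCTgggaggctctg
COL6A2, chr21:47549239-47549268, plus strand, coding exon: cggccgcctacTCCCAGCTggtggccgtgc
LAMA5, chr20:60890171-60890200, minus strand, coding exon: cccgtgtgcagTCCCAGCTgcaggccatgc
COL23A1, chr5:177664768-177664797, minus strand, untranslated part of an exon: tcagggctggtTCCCAGCTggcctgagcag
LAMB1, chr7:107592529-107592558, minus strand, coding exon: aactgtgaccgcTGTGCGcccaatacctgg

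The first question was which members HEK293T cells transcribed. Levels between genes are compared per length, as FPKM, here the CPM divided by the kilobases of exon. In WT input LAMC1, the gamma chain of most laminins, had the highest level at 5.69 ± 0.221 FPKM (SD, n = 3), followed by COL6A1, a chain of type VI collagen, at 5.55 ± 0.428. LAMB1, a laminin beta chain, was at 3.9 ± 0.183 FPKM, COL9A3, a chain of the FACIT collagen IX, at 3.58 ± 0.529 and LAMB2, another beta chain, at 3.09 ± 0.184. COL4A2, a chain of basement membrane collagen, came next at 2.23 ± 0.304 FPKM. LAMC1 and COL6A1 lay within their SDs of each other, as did LAMB1 and COL9A3, and COL9A3 and LAMB2. COL27A1 was far below these at 0.324 ± 0.0475 FPKM.

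The chains of the connective tissue collagens were unequal in these cells. COL1A1 was at 1.23 ± 0.119 FPKM in WT input, whereas COL1A2, which encodes the partner chain of type I collagen, had 2 counts in 1 WT IgG library and none in the other 16 libraries. COL3A1 and COL2A1 were at 0.27 ± 0.0597 and 0.0772 ± 0.0218 FPKM. The short chain collagen genes COL8A1, COL8A2 and COL10A1 had no more than 18 counts in any library. COL28A1 and COL17A1 had 1 and 2 counts over all libraries. COL11A2 is given no level per length because the table lists it on 7 sequences, chromosome 6 and alternative haplotypes of the same region, and its counts could be split among them or lost as not unique.

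The number of members detected differed between the groups. In WT input 36 members had at least 10 counts in every library and 6 had none, and in siTDP43 input these numbers were 28 and 8. In WT IP they were 34 and 11 and in WT IgG 23 and 14. The shares reaching 10 counts in every library were 65.5% in WT input, 50.9% in siTDP43 input, 61.8% in WT IP and 41.8% in WT IgG. Over all genes with counts they were 71%, 66.7%, 69.8% and 55.8%. The shares with no count were 10.9%, 14.5%, 20% and 25.5%, beside 10.4%, 13.2%, 17.4% and 24% of all genes. How far these numbers follow the library totals was not tested. In siTDP43 IP 15 members reached 10 counts in every library and 22 had none, and in siTDP43 IgG 5 reached it and 35 had none. The share of members with at least 10 counts in every library, 27.3% in siTDP43 IP and 9.09% in siTDP43 IgG, was below that of all genes, 58.6% and 40.8%. A group in which every library had 0 counts was taken to allow up to 3 counts over the group, and folds against such a group are given as bounds against 3 counts. These bounds and all counting intervals treat every count as independent. Small counts were mostly even, as when both mates of a fragment are counted, so bounds and intervals are too narrow for fragments. Fragments also carried no molecular identifiers, so at most counting error is covered.

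**Figure D1:**
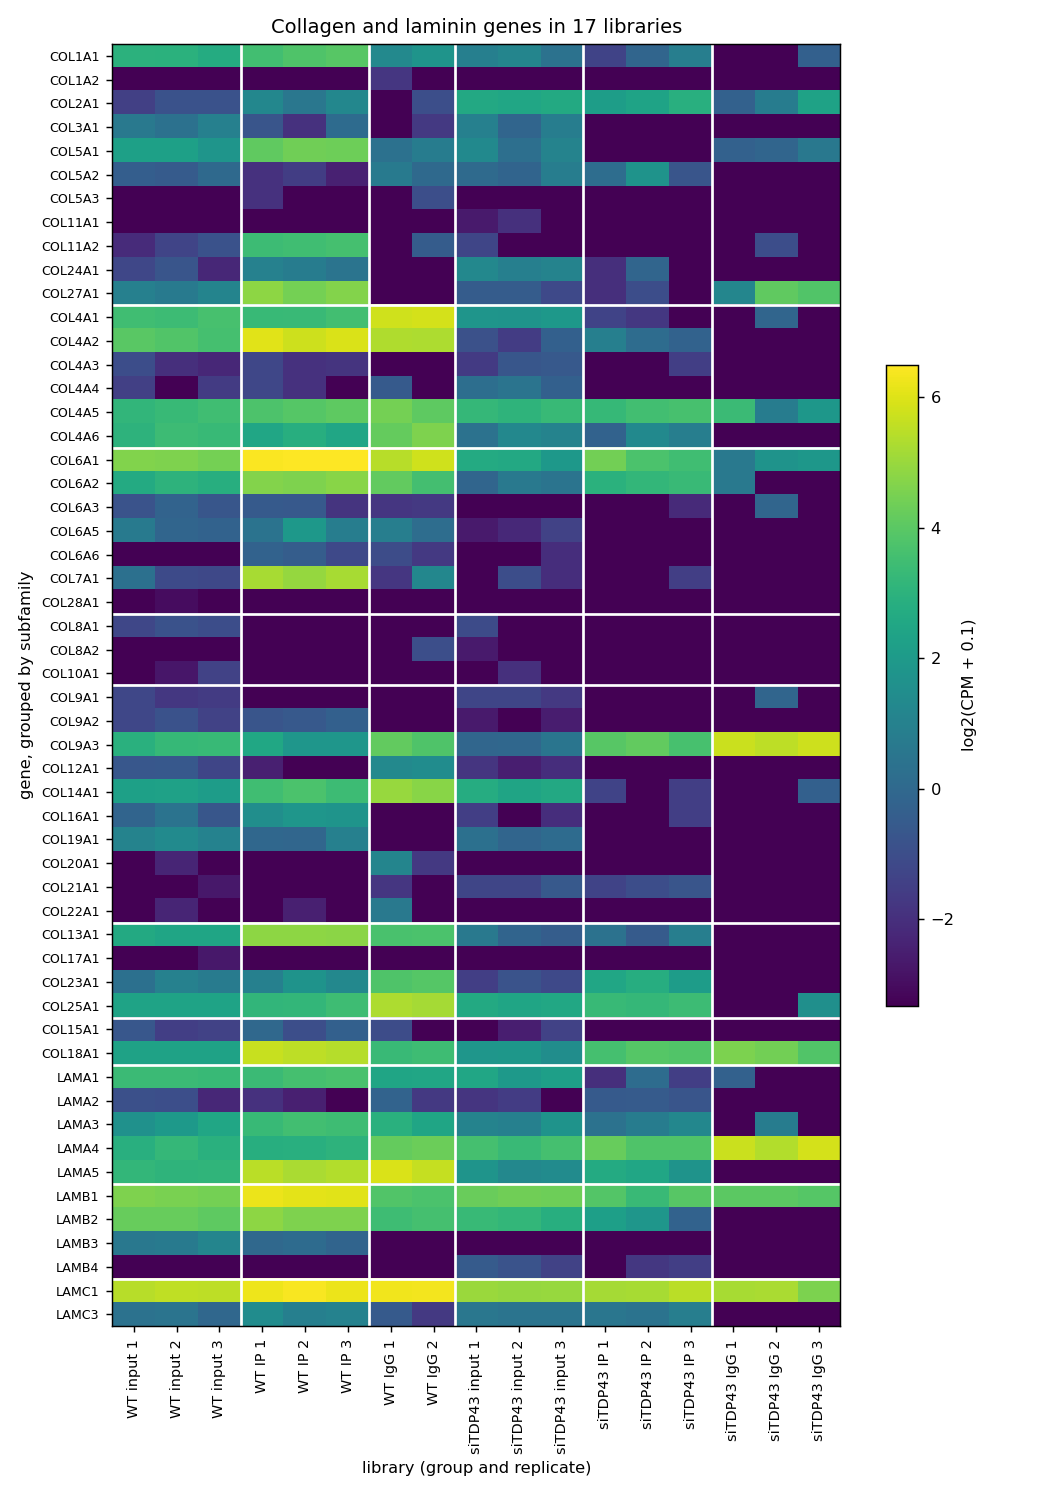
Level of 54 members (rows, by subfamily) in the 17 libraries (columns, by group) as log2(CPM + 0.1), where CPM is scaled by the TMM library size. Members at or near 0 counts are most frequent in the siTDP43 IP and siTDP43 IgG columns, and COL27A1, COL7A1 and COL11A2 stand high in the 3 WT IP columns.

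Summed over the 55 members, CPM was 251 ± 6.19 in WT input (SD, n = 3), 674 ± 11.4 in WT IP (n = 3) and 525 ± 11.6 in WT IgG (n = 2). In siTDP43 it was 142 ± 6.1 in input, 173 ± 1.41 in IP and 196 ± 4.06 in IgG (n = 3 each). The beaded filament and anchoring genes summed to 32.8 ± 2.43 CPM in WT input and 152 ± 3.55 in WT IP, against 6.89 ± 1.29 and 24 ± 3.9 in siTDP43. The type IV network genes summed to 45 ± 0.538 CPM in WT input and 16.2 ± 0.978 in siTDP43 input. The laminin beta genes summed to 96.4 ± 6.23 CPM in WT IP and 16.4 ± 2.82 in siTDP43 IP. The FACIT genes were at 17.6 ± 1.73 CPM in WT input and 51.3 ± 4 in siTDP43 IgG, where COL9A3 alone had 50.8 ± 4.15. Such sums are weighted to the members with most counts and were not tested.

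**Figure D2:**
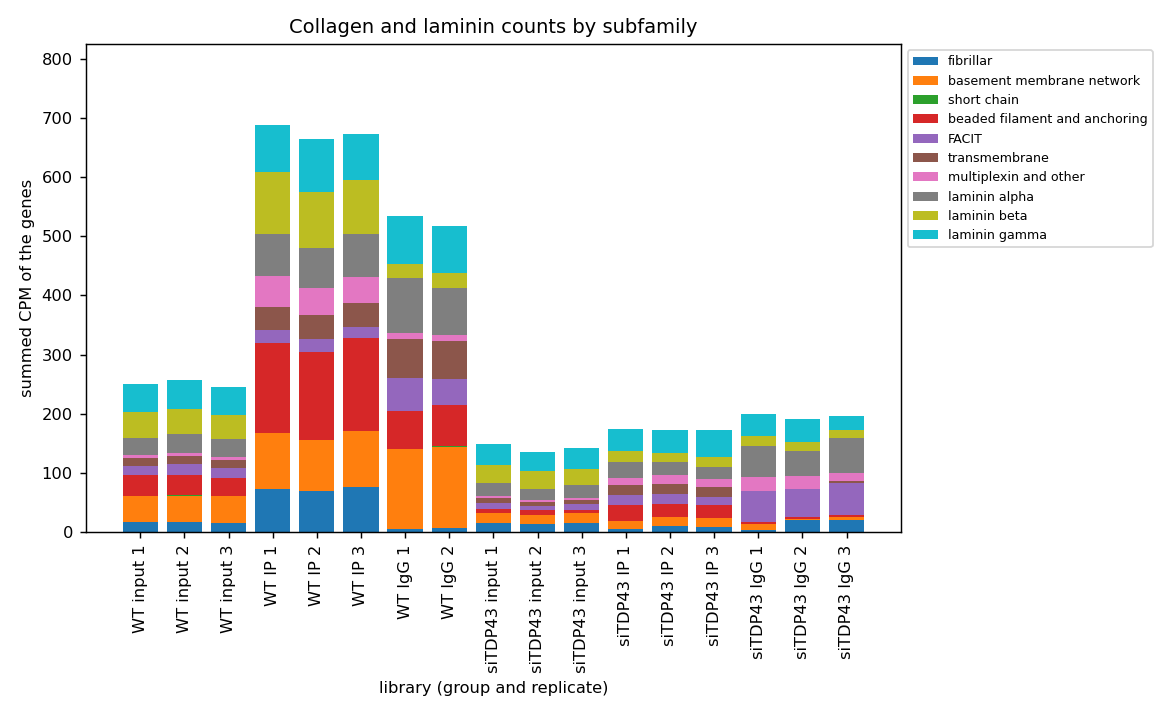
Summed CPM of the members by subfamily, stacked, with 1 column per library. Columns average 251 CPM in WT input, 674 in WT IP, 525 in WT IgG, 142 in siTDP43 input, 173 in siTDP43 IP and 196 in siTDP43 IgG.

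The comparison of the inputs asked how the members' RNA level differed between siTDP43 and WT cells. Of the 37 members that passed the low-count filter 24 were lower and 5 higher in siTDP43 input (edgeR, adjusted p under 0.05), while over all 14036 genes tested 40.6% were lower and 38.6% higher. The median log2 change was -1.11 over these 37 members and -0.049 over all genes tested, and a member that passed the filter through its WT libraries alone was bound to appear lower. By subfamily, each of the 5 tested beaded filament and anchoring genes, 3 of 4 FACIT genes, 2 of 3 transmembrane genes, 3 of 6 type IV genes and 3 of 7 fibrillar genes fell. Among the laminins 3 of 4 alpha and 3 of 3 beta chain genes fell. In bulk samples fewer cells of a type and less RNA per cell cannot be told apart.

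COL4A2 fell most among the members with at least 50 counts on average. It had 15.7, 14.1 and 11.9 CPM in WT input and 0.441, 0.238 and 0.709 CPM in siTDP43 input. The groups lay far apart, with a log2 change of -4.88 (SE 0.22, adjusted p = 6.38e-19). Its neighbour COL4A1 (chr13:110801310-110959496), which encodes the other chain of the common type IV collagen and starts 134 bases away on the opposite strand, was at 11.2, 10.5 and 12.2 CPM in WT input and 3.41, 3.25 and 3.62 CPM in siTDP43 input. COL4A1 fell by 1.72 on the log2 scale (SE 0.14, adjusted p = 2.68e-12), less than COL4A2. The ratio of COL4A2 to COL4A1 counts was 1.4, 1.35 and 0.977 in the WT input libraries and 0.13, 0.0732 and 0.196 in the siTDP43 input libraries.

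The other head-to-head type IV pairs are given although they were chosen after their values were seen. COL4A6 and COL4A5, which lie 369 bases apart on chromosome X, had log2 changes of -2.38 (SE 0.19, adjusted p = 1.52e-12) and -0.12 (SE 0.13, adjusted p = 0.383). The ratio of COL4A5 to COL4A6 counts was 1.08, 0.92 and 1.14 in WT input and 7.71, 3.55 and 4.81 in siTDP43 input. COL4A4, which lies 5 bases from COL4A3 on chromosome 2, had 8, 0 and 8 counts in WT input and 34, 32 and 20 in siTDP43 input, a log2 change of 2.68 (SE 0.61, adjusted p = 2.03e-04). COL4A3 had 12, 6 and 4 counts in WT input and 7, 13 and 16 in siTDP43 input, and its log2 change of 0.99 (SE 0.63, adjusted p = 0.145) did not pass. The ratio of COL4A3 to COL4A4 counts was 1.5 and 0.5 in the WT input libraries with COL4A4 counts and 0.206, 0.406 and 0.8 in siTDP43 input, so that here the groups overlapped. The difference within a pair was not tested.

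The type VI genes on chromosome 21 moved in the same direction. COL6A1 (chr21:47401663-47424963) was at 24.9, 24 and 21.4 CPM in WT input and 6.37, 5.98 and 3.62 CPM in siTDP43 input, a log2 change of -2.13 (SE 0.13, adjusted p = 3.28e-15). COL6A2 (chr21:47518033-47552763) was at 6.31, 8.06 and 6.95 CPM against 0.82, 1.47 and 1.28 CPM, a log2 change of -2.60 (SE 0.21, adjusted p = 2.02e-12). COL6A3, the third classical chain, had 14, 30 and 18 counts in WT input and none in siTDP43 input, and was at least 16.8-fold lower.

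COL9A3 was at 7.37, 9.54 and 9.75 CPM in WT input and 0.851, 0.871 and 1.31 CPM in siTDP43 input. It was lower in every siTDP43 library, with a log2 change of -3.13 (SE 0.21, adjusted p = 8.90e-15). The exons of COL9A3 share 45 bases (1.81%) with the antisense gene TCFL5, and whether counting used strand is not stated. COL27A1 had 56, 60 and 72 counts in WT input and 20, 16 and 10 in siTDP43 input, or 1.85, 1.53 and 2.05 against 0.631, 0.634 and 0.355 CPM. The groups did not overlap, with a log2 change of -1.73 (SE 0.36, adjusted p = 8.21e-05), but the call was lost when a GC trend was removed from each library (-0.75, adjusted p = 0.0595).

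Among the laminins LAMB3, the beta chain of the laminin that anchors epithelia, had 43, 60 and 74 counts in WT input and none in any siTDP43 library, and was at least 48-fold lower in siTDP43 input. LAMA5, the alpha chain of the most widespread adult laminin, fell by 1.64 (SE 0.17, adjusted p = 2.57e-10) and LAMB2 fell by 1.06 (SE 0.12, adjusted p = 1.04e-09) on the log2 scale. LAMA1, the alpha chain of early embryonic laminin, fell by 1.11 (SE 0.15, adjusted p = 5.53e-08). LAMC1 was at 43, 46.5 and 45.2 CPM in WT input and 32, 30.6 and 31.3 CPM in siTDP43 input, a smaller change of -0.51 (SE 0.065, adjusted p = 2.35e-08). LAMB1 changed least of those called, by -0.20 (SE 0.083, adjusted p = 0.0307). That call was lost without WT input replicate 1 (-0.17, adjusted p = 0.114) or 2 (-0.20, adjusted p = 0.0651), without siTDP43 input replicate 1 (-0.17, adjusted p = 0.0756), with DESeq2 (-0.18, adjusted p = 0.0607) and with no low-count filter (-0.19, adjusted p = 0.0514).

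The 5 members that rose were COL2A1, COL4A4, COL24A1, LAMA4 and COL14A1. COL2A1, the collagen gene of cartilage, was at 0.264, 0.458 and 0.456 CPM in WT input and 5.96, 5.54 and 6.1 CPM in siTDP43 input. Every siTDP43 library lay above every WT library, with a log2 change of 3.87 (SE 0.27, adjusted p = 2.39e-14), and COL2A1 was the member with the largest rise among those tested. COL24A1, a minor fibrillar gene, had 10, 20 and 4 counts against 73, 45 and 56 (log2 change 2.65, SE 0.42, adjusted p = 1.15e-06). LAMA4, the alpha chain of vessel and muscle laminins, was at 7.21, 9.11 and 7.32 CPM against 11.9, 9.9 and 12 CPM, a rise of 0.52 (SE 0.13, adjusted p = 5.65e-04).

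COL14A1, a FACIT gene, was at 4.63, 4.78 and 4.19 CPM in WT input and 6.72, 5.27 and 6.03 CPM in siTDP43 input. Its log2 change of 0.41 (SE 0.16, adjusted p = 0.0212) did not pass without WT input replicate 3 (0.36, adjusted p = 0.0866) or without siTDP43 input replicate 1 (0.33, adjusted p = 0.09). It also missed the threshold with total count scaling (0.32, adjusted p = 0.0687) and with the GC trend removed (0.28, adjusted p = 0.118). LAMB4 had 19, 12 and 8 counts in siTDP43 input and none in any WT library, too few for the filter. Among the 8 tested members that did not pass were COL3A1, COL4A5, COL5A2 and COL25A1.

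**Figure D3:**
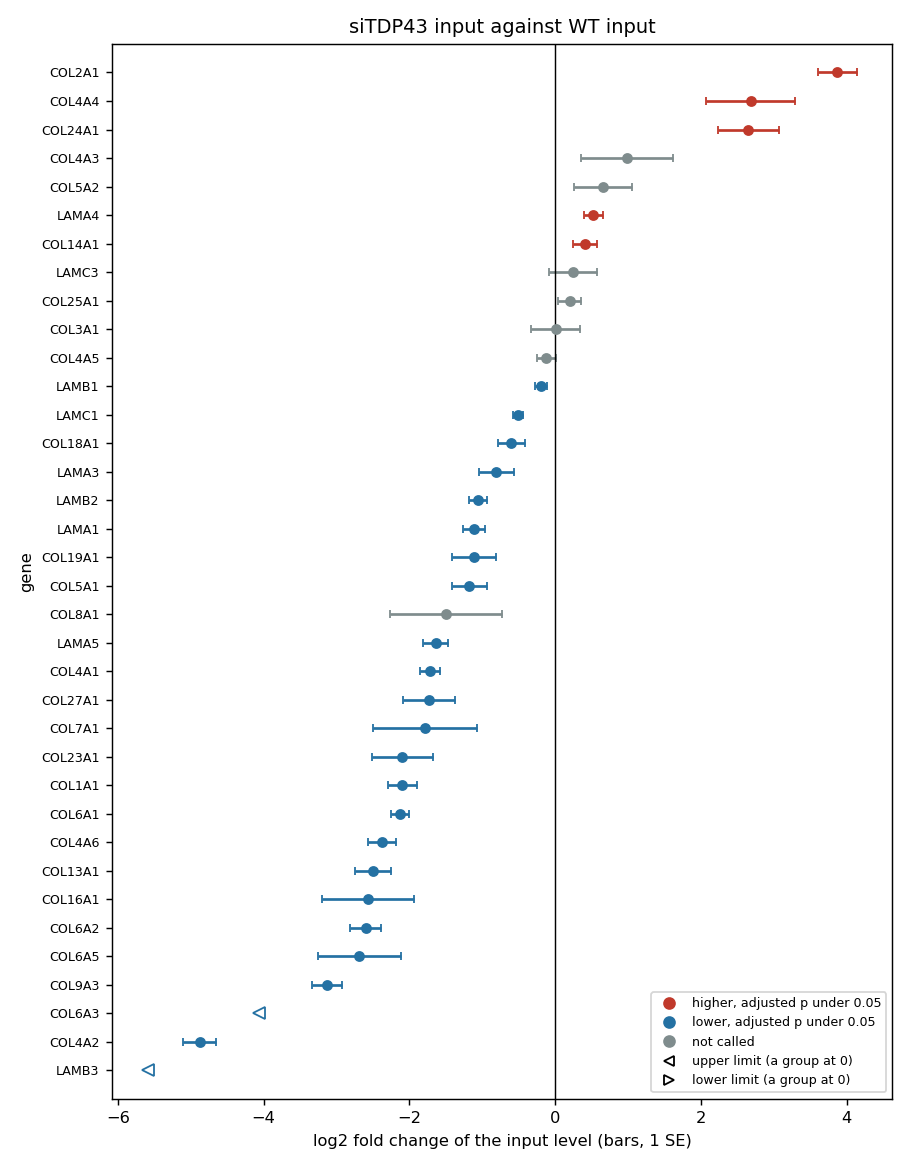
Log2 change of tested members in siTDP43 input against WT input, with the SE as bars, and open triangles for members with no count in siTDP43 input, drawn at the limit that 3 counts allow. COL2A1 lies farthest to the right at 3.87, and COL4A2 at -4.88 and the limits of LAMB3 and COL6A3 lie farthest to the left.

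The WT pull-downs asked which members were enriched by the ac4C antibody over input and over IgG. Of 39 members tested 18 were higher in WT IP than in WT input and 4 lower (adjusted p under 0.05 and a fold above 2), beside 30.2% and 27.3% of all 14751 genes tested. Against WT IgG 18 were higher and 9 lower, beside 35.2% and 17.8%. A member that passed the low-count filter through its WT IP libraries alone was bound to appear higher in both comparisons. The median log2 difference over the 39 members was 0.94 over input and 1.10 over IgG, against 0.013 and 0.29 over all genes tested. Of the 39 members 6 had no count in WT IgG. Among the 33 members with counts in both IP and IgG, 12 were higher and 9 lower in IP, with a median of 0.83. The comparisons over input and over IgG use the same IP libraries. The control pull-down itself differed from input, with 14 of the 39 members higher and 11 lower in WT IgG, beside 24.4% and 36.6% of all genes. Among the 32 members with counts in both IgG and input, 13 were higher and 5 lower in IgG.

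COL7A1, which encodes the anchoring fibril collagen (chr3:48601506-48632593), had the largest rise over input among members with counts in each group. It was at 1.12, 0.356 and 0.342 CPM in WT input, 37, 30.8 and 36.6 CPM in WT IP and 0.194 and 2.26 CPM in WT IgG. The IP libraries lay far above both controls, by 5.91 on the log2 scale over input (SE 0.28, adjusted p = 1.02e-15) and by 4.83 over IgG (SE 0.37, adjusted p = 2.93e-11). Single libraries moved these sizes: the log2 difference over input was 6.62 without WT input replicate 1, and that over IgG was 3.92 without WT IgG replicate 1 and 7.44 without WT IgG replicate 2.

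COL11A2, a fibrillar gene of cartilage (chr6:33130469-33160245), had 4, 12 and 16 counts in WT input, 256, 274 and 270 in WT IP and 0 and 6 in WT IgG. It was higher in IP by 5.19 over input (SE 0.32, adjusted p = 2.25e-13) and by 5.18 over IgG (SE 0.50, adjusted p = 1.60e-09). Without WT IgG replicate 1 the latter was 4.16, and without WT IgG replicate 2 the remaining IgG library had no count. COL5A1, which encodes a chain that starts fibril growth, was at 4.69, 4.65 and 3.42 CPM in WT input, 17.2, 20.5 and 19.8 CPM in WT IP and 1.16 and 1.65 CPM in WT IgG. It was higher in IP by 2.18 over input (SE 0.16, adjusted p = 3.94e-12) and by 3.75 over IgG (SE 0.26, adjusted p = 6.53e-12).

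COL27A1 (chr9:116918231-117072975) had 56, 60 and 72 counts in WT input, 693, 527 and 572 in WT IP and none in either WT IgG library. The log2 difference of IP over input was 3.81 (SE 0.17, adjusted p = 1.21e-15), and IP was at least 168-fold higher than IgG (adjusted p = 4.93e-14). In IgG it was at least 12-fold lower than in input. COL18A1, a multiplexin gene whose product sits in basement membranes, was at 4.96, 5.01 and 4.9 CPM in WT input, 51.2, 45.7 and 42.5 CPM in WT IP and 10.1 and 10.7 CPM in WT IgG. It was higher in IP by 3.24 over input (SE 0.11, adjusted p = 2.68e-18) and by 2.14 over IgG (SE 0.14, adjusted p = 1.27e-12).

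As a share of the library, the IgG control was as high as the IP, or higher, for several members. COL4A1 was at 11.2, 10.5 and 12.2 CPM in WT input, 9.59, 10 and 11.3 CPM in WT IP and 54.9 and 57.5 CPM in WT IgG, so that IP was lower than IgG by 2.47 (SE 0.12, adjusted p = 1.05e-14) on the log2 scale. COL23A1, a transmembrane collagen gene, was at 1.82, 3.18 and 2.3 CPM in WT IP and 13.7 and 14.8 CPM in WT IgG (log2 difference -2.56, SE 0.27, adjusted p = 7.79e-09). COL25A1, which also encodes a transmembrane collagen, was at 8.72, 9.06 and 10.7 CPM in WT IP and 38.9 and 36.1 CPM in WT IgG (IgG 4.01-fold higher, adjusted p = 6.16e-12). LAMA5 rose over input in the IP by 2.27 (SE 0.10, adjusted p = 5.28e-16) and in the IgG by 2.71 (SE 0.11, adjusted p = 2.20e-16).

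For other members IgG lay below input. COL1A1 was at 7.74, 7.71 and 6.5 CPM in WT input and 2.33 and 3.29 CPM in WT IgG, a log2 difference of -1.36 (SE 0.25, adjusted p = 2.26e-05). COL5A1 was lower in IgG than in input by 1.57 (SE 0.30, adjusted p = 4.31e-05). COL6A1 rose over input by 1.93 in the IP (SE 0.081, adjusted p = 1.22e-16) and by 1.09 in the IgG (SE 0.10, adjusted p = 3.03e-10). Its log2 difference of IP over IgG was 0.83, under the fold threshold, but 1.01 without WT IgG replicate 2, where that of IgG over input was 0.91. COL9A3 was lower in the IP than in input, at 5.74, 3.51 and 3.46 against 7.37, 9.54 and 9.75 CPM (log2 difference -1.06, SE 0.19, adjusted p = 2.47e-05). The fold of COL9A3 was under the threshold without WT IP replicate 2 or 3 (-0.93 each), without WT input replicate 3 (-0.99) and with total count scaling (-0.95).

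A member was called ac4C(+) where IP was higher than both input and IgG. In WT these were 10 of 39 members tested, COL2A1, COL5A1, COL7A1, COL11A2, COL13A1, COL16A1, COL18A1, COL24A1, COL27A1 and LAMB1, beside 15.6% of all genes tested. With a fold over IgG above 5 there were 8, beside 10.5% of all genes, without COL13A1 and COL18A1, which were 2.15-fold and 4.42-fold higher than IgG. The 10 held 5 of the 8 fibrillar genes tested, and LAMB1 was the laminin gene among them. LAMB1 was at 23.9, 22.7 and 21.8 CPM in WT input, 74.1, 68.7 and 67.2 CPM in WT IP and 14 and 13 CPM in WT IgG, higher in IP by 1.63 over input (SE 0.079, adjusted p = 2.06e-15) and by 2.36 over IgG (SE 0.11, adjusted p = 3.98e-15). Of the 10 ac4C(+) members COL7A1 and COL18A1 held TCCCAGCT (20%), against 22.4% of the 2302 ac4C(+) genes and 10 of the 29 other members tested (34.5%).

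**Figure D4:**
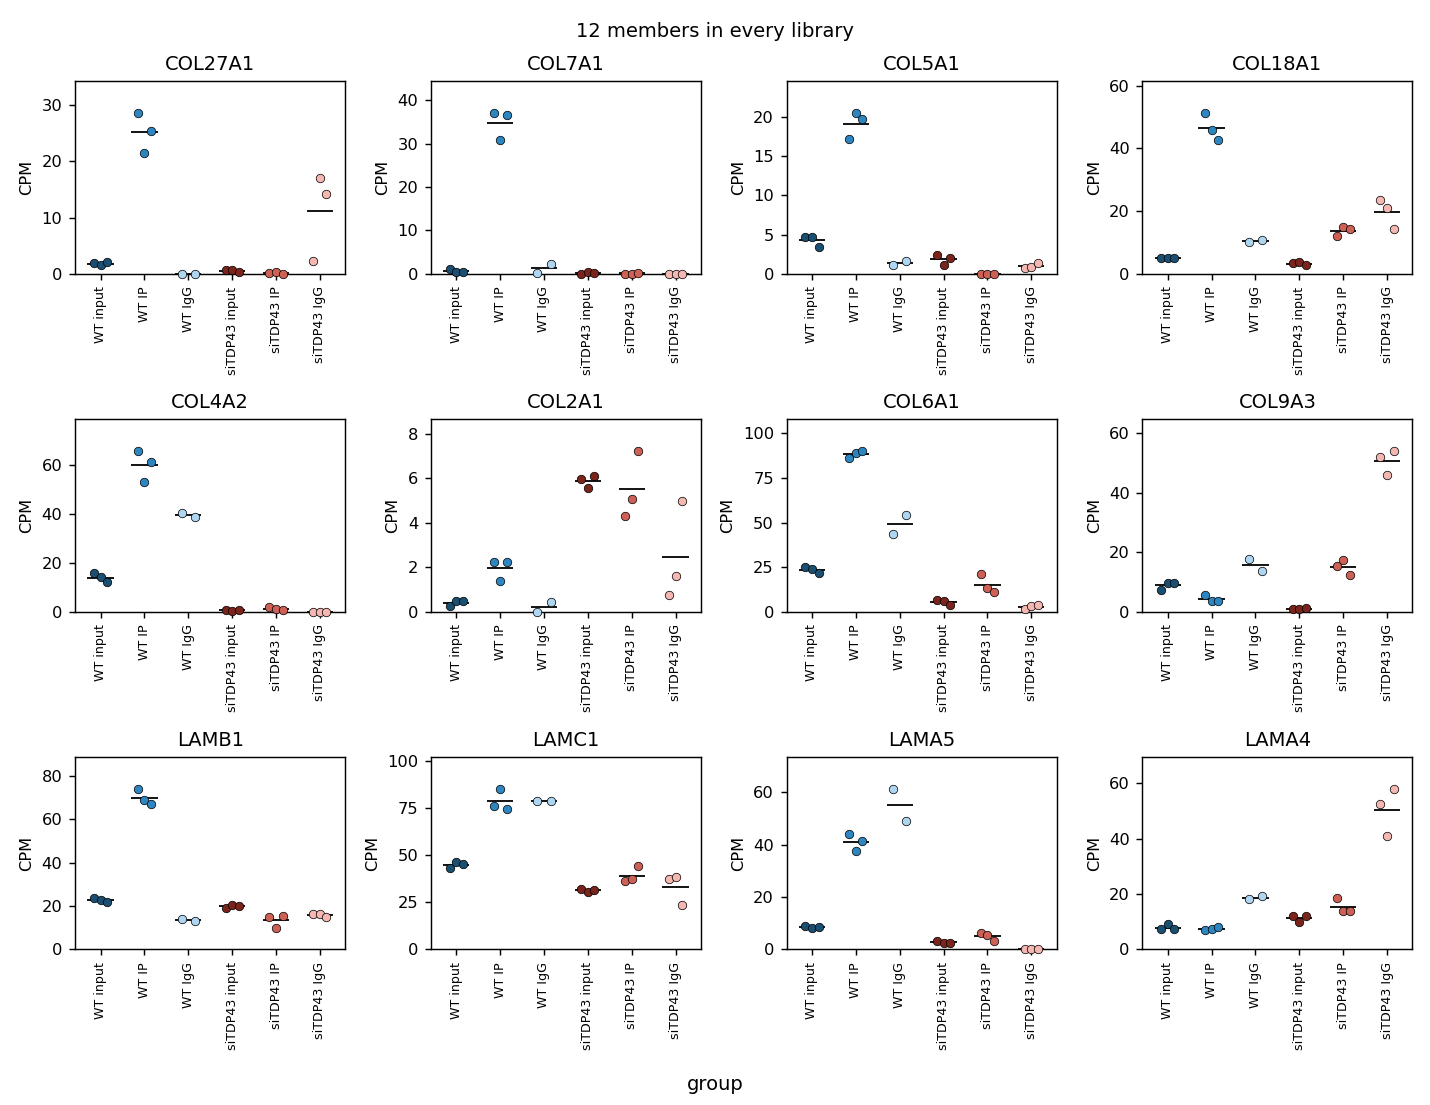
CPM of 12 members in each library, by group, with each point a library and the line the group mean. COL27A1, COL7A1, COL5A1 and COL18A1 are highest in the 3 WT IP libraries, and COL9A3 and LAMA4 in the 3 siTDP43 IgG libraries.

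In siTDP43 cells fewer members could be tested, and a member that passed the filter through 1 group alone was bound to appear higher there. Of 26 members 6 were higher and 7 lower in siTDP43 IP than in siTDP43 input, beside 26.8% and 25.4% of all 12746 genes tested. Against siTDP43 IgG 11 were higher and 4 lower, beside 34.0% and 15.0%, and in siTDP43 IgG against input 4 were higher and 15 lower, beside 24.7% and 41.0%. The median log2 difference was 0.16 over input against -0.092 over all genes tested, but its sign turned with the GC trend removed (-0.26, against -0.04), with total count scaling (-0.18, against -0.43), with no low-count filter (-1.23, against -0.45) and with limma (-0.038, against -0.27). For IP over IgG it was 1.67, or 1.34 over the 24 members that have a value when groups with no count are set to their bound, against 0.33 over all genes tested. For IgG over input it was -2.41, or -1.62 over 25 members with bounds, against -0.58. The medians of all genes are of fitted values without bounds. Among the 16 members with counts in both groups the median of IP over IgG was 0.47, with 4 higher and 3 lower. Among the 17 members with counts in both groups the median of IgG over input was -0.72, with 4 higher and 7 lower.

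COL9A3 had its highest levels in siTDP43 IgG. It was at 0.851, 0.871 and 1.31 CPM in siTDP43 input, 15.5, 17.4 and 12.2 CPM in siTDP43 IP and 52.1, 46.1 and 54.1 CPM in siTDP43 IgG, beside 17.6 and 13.8 CPM in WT IgG. IP was higher than input by 4.04 (SE 0.23, adjusted p = 5.51e-13), IgG was higher than input by 5.87 (SE 0.24, adjusted p = 8.22e-16), and IP was lower than IgG by 1.83 (SE 0.20, adjusted p = 4.25e-08). LAMA4 was ordered in the same way, at 11.9, 9.9 and 12 CPM in input, 18.6, 13.7 and 13.7 CPM in IP and 52.5, 40.9 and 58 CPM in IgG. Its IgG was higher than input by 2.39 (SE 0.18, adjusted p = 3.98e-11) and its IP lower than IgG by 1.79 (SE 0.18, adjusted p = 2.11e-08).

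COL6A1 and COL6A2 were higher in siTDP43 IP than in both controls. COL6A2 was at 0.82, 1.47 and 1.28 CPM in siTDP43 input, 7.58, 8.91 and 9.97 CPM in IP and 1.47, 0 and 0 CPM in IgG, with log2 differences of 3.04 over input (SE 0.39, adjusted p = 3.58e-07) and, relative to IgG, of 4.04 (SE 0.68, adjusted p = 1.74e-05). COL6A1 was at 6.37, 5.98 and 3.62 CPM in input, 20.9, 13 and 11.2 CPM in IP and 1.47, 3.24 and 3.56 CPM in IgG, with log2 differences of 1.66 over input (SE 0.27, adjusted p = 1.00e-05) and, relative to IgG, of 2.38 (SE 0.41, adjusted p = 2.27e-05). COL23A1 had 8, 12 and 10 counts in input, 74, 68 and 34 in IP and none in IgG. It was higher in IP than in input by 4.08 (SE 0.46, adjusted p = 1.08e-07) and at least 15-fold higher than in IgG. These genes and LAMA5 were the 4 ac4C(+) members of 26 tested in siTDP43, beside 10.3% of all genes tested. Of these 4 members COL6A2, COL23A1 and LAMA5 held TCCCAGCT (75%). The share was 18.2% in the 22 other members tested and 19.9% in the 1314 ac4C(+) genes, and its difference was not tested. LAMA5 was not ac4C(+) with DESeq2, DESeq2 size factors, total count scaling, the GC trend removed or limma. COL6A1 was not ac4C(+) with the GC trend removed or with limma.

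COL25A1 was at 9.66, 9.32 and 10.5 CPM in siTDP43 IP and had counts in 1 of 3 siTDP43 IgG libraries, 0, 0 and 2.85 CPM. IP was higher by 3.22 (SE 0.57, adjusted p = 3.54e-05), and by 2.63 without siTDP43 IgG replicate 1, while without replicate 3 the remaining IgG libraries had no count. COL18A1 was at 3.47, 3.6 and 2.69 CPM in siTDP43 input, 12, 14.9 and 14.3 CPM in IP and 23.5, 21 and 14.2 CPM in IgG. It was higher than input by 2.23 in IP (SE 0.24, adjusted p = 2.28e-08) and by 2.81 in IgG (SE 0.26, adjusted p = 1.91e-09).

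Other members had few or no counts in siTDP43 IP. COL5A1 had 76, 28 and 57 counts in siTDP43 input, none in siTDP43 IP and 2, 2 and 4 in siTDP43 IgG, so that IP was at least 19.8-fold lower than input and at least 10.4-fold lower than IgG. Scaled for depth, COL5A1 in IgG did not pass against input (log2 difference -0.66, SE 0.66, adjusted p = 0.356). COL14A1 had 213, 133 and 170 counts in input and 4, 0 and 2 in IP, a log2 difference of -4.77 (SE 0.56, adjusted p = 8.77e-08), or -5.47 without siTDP43 IP replicate 1. LAMA1 had 176, 94 and 130 counts in input and 2, 10 and 2 in IP, a log2 difference of -3.17 (SE 0.54, adjusted p = 1.59e-05), or -4.43 without siTDP43 IP replicate 2. In IgG COL14A1 and LAMA1 each had 2 counts in 1 library, so that input over IgG was 24.3 (95% exact counting interval 6.68 to 201) and 18.8 (5.17 to 156).

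LAMB2 had 308, 225 and 197 counts in siTDP43 input, 62, 34 and 6 in IP and none in IgG. IP was lower than input by 1.32 (SE 0.38, adjusted p = 0.00335), a fold that was under the threshold without siTDP43 IP replicate 3 (-0.91), and IgG was at least 22.9-fold lower than input. COL27A1 had 20, 16 and 10 counts in siTDP43 input, 2, 4 and 0 in IP and 6, 42 and 40 in IgG. IgG was higher than input by 4.57 (SE 0.61, adjusted p = 4.91e-07), and IP was lower than IgG by 5.88 (SE 0.77, adjusted p = 6.70e-07), or by 6.88 without siTDP43 IP replicate 2. Its log2 difference of IP over input was -1.31 (SE 0.88, adjusted p = 0.178).

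The change of enrichment between the cells was tested as an interaction, the log2 difference of IP over its control in siTDP43 minus that in WT. Over input 23 of 42 members tested had a lower and 6 a higher value in siTDP43, beside 36.3% and 31.5% of all 15165 genes tested. The median was -2.02, or -1.87 over 41 members with bounds, against -0.19 over all genes tested. Of the 42 members 12 had a group with no count. Among the other 30 members 16 were lower and 6 higher, with a median of -1.60. A member that passed the filter through its WT IP libraries alone could hardly appear other than lower. Over IgG 4 were lower and 12 higher, beside 25.9% and 34.9%. There 26 of the 42 members had a group with no count, and for 12 of them no bound exists. The median over the 42 fitted values was -0.054 and that over the 30 members with a value or bound was 0.37, so its sign was not settled. The interactions share the IP libraries, and the input interaction also shares the inputs compared above.

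By subfamily, 7 of 8 fibrillar genes tested fell over input, COL1A1, COL2A1, COL3A1, COL5A1, COL11A2, COL24A1 and COL27A1. Of these COL3A1, COL5A1 and COL11A2 had no count in siTDP43 IP. Of the laminin genes 3 of 5 alpha and 2 of 3 beta chains fell, and of the type IV genes 2 of 6, beside 36.3% of all genes tested. The type IV share of 33.3% was near that of all genes. COL27A1 changed by -5.26 over input (SE 0.76, adjusted p = 1.85e-07), or -6.26 without siTDP43 IP replicate 2, and by -13.24 at most over IgG (adjusted p = 4.25e-16). COL5A1 changed by -6.48 at most over input (adjusted p = 4.27e-12) and by -7.16 at most over IgG (adjusted p = 3.18e-07). COL27A1 and COL5A1 were thus lower against both controls, as were COL18A1, by -1.16 over input (SE 0.23, adjusted p = 4.65e-05) and, relative to IgG, by -2.68 (SE 0.27, adjusted p = 6.55e-11), and LAMB1, by -2.19 (SE 0.18, adjusted p = 1.32e-13) and -2.61 (SE 0.25, adjusted p = 8.52e-12). These were the 4 members that fell over IgG.

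COL14A1 changed by -6.28 over input (SE 0.48, adjusted p = 2.85e-14), and its log2 change over IgG of 0.96 (SE 1.31, adjusted p = 0.607) did not pass. COL7A1 had 0, 10 and 4 counts in siTDP43 input, 0, 0 and 2 in siTDP43 IP and none in siTDP43 IgG. Its change over input of -7.17 (SE 1.38, adjusted p = 2.46e-05) rests on those 2 IP counts. It was -5.94 without siTDP43 input replicate 2, -6.43 without siTDP43 IP replicate 1, -7.81 without siTDP43 input replicate 1, -7.89 without WT input replicate 1 and -10.64 without siTDP43 IP replicate 3. COL11A2, with 10, 0 and 0 counts in siTDP43 input and none in IP, changed by -5.49 at most over input (adjusted p = 7.47e-05), and the call was lost without siTDP43 input replicate 1 (adjusted p = 1).

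The 6 members that rose over input were COL9A3, COL23A1, COL5A2, LAMA2, COL6A2 and LAMA4. COL9A3 changed by 4.96 (SE 0.32, adjusted p = 3.69e-16), from IP below input in WT to IP above input in siTDP43, while its change over IgG was 0.14 (SE 0.31, adjusted p = 0.825). COL23A1 changed by 3.29 over input (SE 0.51, adjusted p = 6.88e-07) and by at least 6.45 over IgG (adjusted p = 1.11e-10). COL6A2 changed by 1.05 over input (SE 0.33, adjusted p = 0.00495) and by 3.32 over IgG (SE 0.68, adjusted p = 5.37e-05). LAMA2, the alpha chain of muscle laminin, had at most 16 counts in any library.

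The LAMA4 change of 0.54 over input (SE 0.24, adjusted p = 0.0447) was close to the threshold. It was lost without WT IP replicate 1 (0.49, adjusted p = 0.0957) or 2 (0.52, adjusted p = 0.0795) and without WT input replicate 2 (0.40, adjusted p = 0.168). It was also lost without siTDP43 input replicate 2 (0.46, adjusted p = 0.114) and without siTDP43 IP replicate 1 (0.36, adjusted p = 0.198). Total count scaling (0.24, adjusted p = 0.386), DESeq2 size factors (0.48, adjusted p = 0.0721), no low-count filter (0.54, adjusted p = 0.0584) and limma (0.14, adjusted p = 0.445) lost it too. COL6A1 changed by -0.39 over input (SE 0.23, adjusted p = 0.144), a value that passed without siTDP43 IP replicate 1 (-0.73, adjusted p = 0.00496) or siTDP43 input replicate 3 (-0.60, adjusted p = 0.0207). It also passed with total count scaling (-0.69, adjusted p = 0.00758) and with limma (-1.01, adjusted p = 9.86e-04). Over IgG COL6A1 rose by 1.63 (SE 0.43, adjusted p = 0.00101).

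Over IgG the 12 members that rose were COL4A2, COL4A5, COL4A6, COL5A2, COL6A1, COL6A2, COL13A1, COL23A1, COL25A1, LAMA2, LAMA5 and LAMB2. COL25A1 changed by 5.27 (SE 0.49, adjusted p = 6.84e-12), from 8.72, 9.06 and 10.7 CPM in WT IP against 38.9 and 36.1 CPM in WT IgG to 9.66, 9.32 and 10.5 CPM in siTDP43 IP against 0, 0 and 2.85 CPM in siTDP43 IgG. Its mean was 9.49 CPM in WT IP and 9.81 in siTDP43 IP, and 37.5 CPM in WT IgG and 0.949 in siTDP43 IgG. For 8 of the 12 the siTDP43 IgG group had no count, and the change is a lower bound, at least 4.25 for LAMA5, at least 3.83 for COL4A6 and at least 1.94 for LAMB2. All 3 transmembrane genes tested were among the 12, while 34.9% of all genes tested rose.

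**Figure D5:**
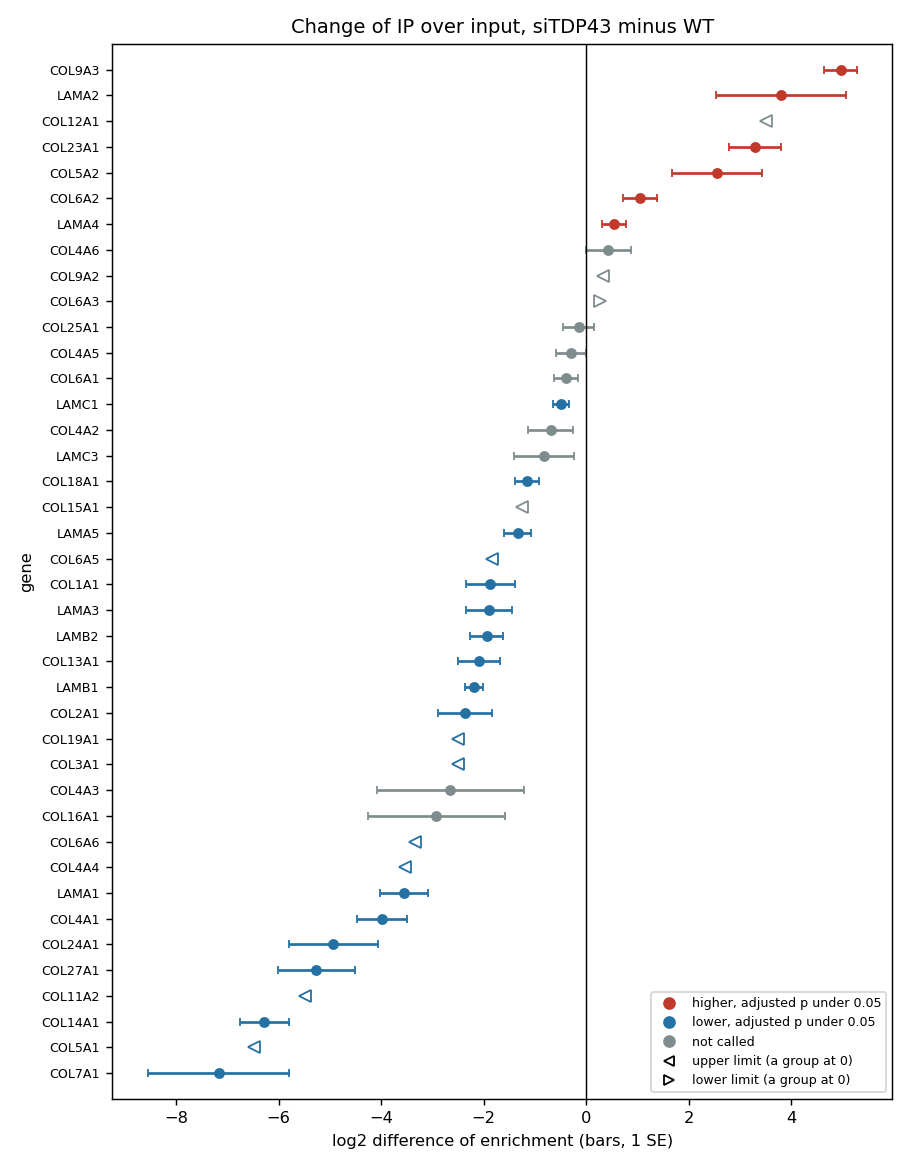
Change of the log2 difference of IP over input, siTDP43 minus WT, for tested members, with the SE as bars and open triangles for values that are only limits because a group had no count. COL9A3 lies farthest to the right at 4.96, and COL7A1 at -7.17, the limit of COL5A1 at -6.48 and COL14A1 at -6.28 lie farthest to the left.

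Base composition moved with several of these values. The exons of the members had a median GC content of 54.4%, against 49.7% over all genes with counts, and from 41 to 67.5% between members. The ac4C(+) members in WT had a median of 62.4% against 53% in the other members tested, and over all genes it was 56.1% against 48.6%. With a GC trend removed from each library, 15 members were higher and 6 lower in WT IP than in input, beside 27.4% and 26.9% of all genes. In WT IP over IgG they were 13 and 11 of 39, beside 27.3% and 28.9%, and in siTDP43 IP over input 4 and 10 of 26, beside 25.6% and 24.1%. Of the ac4C(+) members in WT 7 were called under that setting, beside 11.1% of all genes, without COL13A1, COL16A1 and COL18A1. In siTDP43 they were COL6A2, COL23A1 and COL25A1, beside 7.87%.

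Values of members of high and of low GC content moved under that setting. The log2 difference of WT IP over input became 4.32 for COL7A1, 3.99 for COL11A2, 2.25 for COL27A1 and 0.60 for COL6A1, the last under the fold threshold. For COL9A3, the member with the highest GC content, the input change became -1.84, WT IP over input -3.23, siTDP43 IP over input 1.74 and siTDP43 IgG over input 3.78. In siTDP43 IP over input COL18A1 became 0.057 (adjusted p = 0.835), COL6A1 0.41 (adjusted p = 0.151) and COL6A2 1.15 (adjusted p = 0.0108). COL27A1 in siTDP43 IP became lower than input, at -2.79 (adjusted p = 0.0045). In the inputs COL2A1 became 4.61, COL4A2 -4.15, COL6A1 -1.27 and COL6A2 -1.47. In WT IP over IgG COL7A1 became 3.57, COL11A2 4.07, COL23A1 -3.90 and COL4A1 -3.22. In siTDP43, COL25A1 IP over IgG became 2.44, COL27A1 IgG over input 3.34, COL18A1 IgG over input 0.86, LAMA4 IgG over input 3.48 and LAMA4 IP over IgG -2.56. The change over IgG became -1.80 for COL18A1, 2.24 for COL6A1 and 1.04 for COL9A3 (adjusted p = 0.00341).

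Genes that make, bind or cut collagens and laminins were read in the same input comparison. Among 29 tested genes of collagen biosynthesis and cross-linking 16 fell and 9 rose in siTDP43 input, beside 40.6% and 38.6% of all genes, with a median of -0.29. SERPINH1, the collagen chaperone, was at 25.1 ± 0.582 FPKM in WT input and 13 ± 1.24 in siTDP43 input (log2 change -0.94, adjusted p = 5.89e-14). PCOLCE, which speeds removal of the procollagen propeptide, was at 8.41 ± 0.199 and 2.39 ± 0.541 FPKM (log2 change -1.81, adjusted p = 1.05e-12). P4HB, a subunit of the prolyl hydroxylase, rose from 138 ± 3.66 to 193 ± 9.99 FPKM (log2 change 0.50, adjusted p = 1.53e-12), and LOXL3, a cross-linking oxidase, rose from 1.4 ± 0.248 to 5.7 ± 0.296 FPKM (log2 change 2.02, adjusted p = 3.58e-15).

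Of 13 tested basement membrane partners 12 fell, beside 40.6% of all genes, with a median of -0.98, and FREM2 did not pass. SPARC, which binds type IV collagen, was at 14.5 ± 0.248 FPKM in WT input and 0.664 ± 0.255 in siTDP43 input (log2 change -4.45, adjusted p = 6.67e-24), and FBLN1 was at 17.3 ± 0.871 and 5.08 ± 0.788 FPKM (log2 change -1.76, adjusted p = 1.26e-19). NID1, which links laminin to type IV collagen, fell by 0.26 (adjusted p = 6.50e-04). Of 12 receptors 6 fell and 2 rose, beside 40.6% and 38.6% of all genes. The collagen receptor genes DDR1 and DDR2 changed by -2.44 and -2.05 (adjusted p = 2.25e-18 and 3.15e-09). ITGB1, the beta chain of most collagen and laminin integrins, rose from 9.65 ± 0.426 to 20.1 ± 1.03 FPKM (log2 change 1.06, adjusted p = 8.17e-17), and DAG1, which encodes dystroglycan, rose by 1.56 (adjusted p = 3.29e-14).

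Of 9 degrading enzymes and inhibitors tested 7 fell, beside 40.6% of all genes, with a median of -2.29, and MMP9 and MMP16 did not pass. MMP2, which cuts type IV collagen, was at 1.84 ± 0.122 and 0.0897 ± 0.0266 FPKM (log2 change -4.31, adjusted p = 5.67e-16), and TIMP1, the inhibitor with the highest level, was at 252 ± 8.71 and 75 ± 1.19 FPKM (log2 change -1.74, adjusted p = 3.81e-25). In the change of IP over input, 11 of 30 biosynthesis genes, 7 of 15 partners, 8 of 14 receptors and 2 of 10 degrading enzymes fell, and 5, 1, 3 and 3 rose, beside 36.3% and 31.5% of all genes. The biosynthesis genes that fell (36.7%) were thus near the share of all genes. In the change over IgG 10, 5, 4 and 3 of the same genes fell, and 10, 3, 5 and 3 rose, beside 25.9% and 34.9%.

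Markers of the cell line and of other cells moved with the inputs. Of 6 genes typical of HEK293T cells, PAX2, LHX1, NEFL, NEFM, VIM and LIN28B, each had counts in both input groups, and their summed level was 402 to 418 FPKM in WT input and 190 to 202 in siTDP43 input. In the inputs this sum was mostly VIM, which fell from 369 to 123 FPKM. NEFM (log2 change -0.66, adjusted p = 3.32e-11) and LHX1 (-1.24, adjusted p = 0.029) fell too. PAX2, which was not tested between the inputs, had 94 counts summed over WT input and 8 over siTDP43 input. In contrast, NEFL rose from 18.2 to 51.8 FPKM (log2 change 1.52, adjusted p = 2.28e-23) and LIN28B from 5.5 to 10.7 FPKM (0.96, adjusted p = 5.10e-14). PAX2 was at 0 in siTDP43 IP and in siTDP43 IgG, and LHX1 in siTDP43 IgG. The 6 fibroblast markers DCN, LUM, POSTN, PDGFRA, PDGFRB and THY1 summed to 1.63 to 1.8 FPKM in WT input and 0.849 to 1.09 in siTDP43 input, where THY1 was at 0, and all 6 were at 0 in siTDP43 IgG. The 4 endothelial markers reached at most 0.0692 FPKM in an input library, with PECAM1 and CDH5 at 0. The 3 leukocyte markers PTPRC, CD68 and CD14 summed to 2.1 to 2.66 FPKM in WT input, 1.06 to 1.47 in siTDP43 input and 5.54 to 7.04 in WT IP. CD68 fell from 2.43 to 1.14 FPKM between the inputs (log2 change -1.10, adjusted p = 2.92e-05), whereas PTPRC was at 0 in every group except WT IgG. The hepatocyte markers ALB and APOA1 had a summed level between 0.737 and 1.55 FPKM in WT input, between 10.5 and 13.9 in WT IP and between 9.52 and 23.7 in siTDP43 IgG. The rise was in APOA1 alone, at a mean of 1.24 FPKM in WT input, 11.9 in WT IP and 14.4 in siTDP43 IgG. ALB was at 0.0245, 0.0123 and 0 FPKM in these groups. The part of these markers in the members' results was not tested.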

How the data were processed

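HEK293T poly(A) RNA was profiled in 17 acRIP-seq libraries. Per the methods, the authors prepared them with SMART-seq2, trimmed with Trim Galore 0.6.7, aligned with STAR 2.7.10a to hg19 and assigned uniquely mapped reads to genes with featureCounts 2.0.2. The deposited values are these raw counts, not normalized. Which annotation release was used, whether strand was used and how mates were handled are not given in the sources used here. Even numbers made up 81.3 to 95.9% of the counts from 1 to 20, as when both mates are counted, and a count is therefore read as a read. The submitters' processing notes also list a mouse build, but gene positions in the table were those of hg19. Exon sequence was read from that genome, and windows were annotated with GENCODE lifted to it.

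Sample titles gave each library its group and replicate number. Replicates differed by more than sampling noise (chi-square over degrees of freedom 3.23 to 9.17 in 16 pairs), and none was a duplicate. The test was the two-sided quasi-likelihood F test of edgeR 4.0.16 in R 4.3.3, with TMM factors, genes kept by filterByExpr (minimum count 10) and Benjamini-Hochberg adjustment across every gene tested. The input comparison was fitted on the inputs, enrichment on the libraries of WT or of siTDP43, and the interactions on all 17 libraries. IP and IgG contrasts inside WT or siTDP43 were called at an adjusted p under 0.05 with a fold above 2, the remainder at an adjusted p under 0.05. CPM and FPKM were computed with TMM library sizes and the exon lengths of the table.

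Named genes were COL27A1, the 6 members highest in FPKM in WT input and, per comparison, at most 3 rises and 3 falls among called members averaging 50 counts or more whose libraries did not overlap where 2 groups were compared. Others were named where few members made up a count or a subfamily was listed. Members, subfamilies, the lists of biosynthesis genes, basement membrane partners, receptors, degrading enzymes and cell type markers, and the naming rule were chosen with earlier results of these data known. The alternatives were the Wald test of DESeq2 1.42.0, its size factors within edgeR, scaling by total counts alone, no filter on low counts, removal of a GC trend per library, limma 3.58.1 on log2(FPKM + 1), a replicate block, a fold over IgG above 5, and omission of each library. The tests were tried on simulated data. Values of 1 member are not reported here, although it stayed in the fits and in counts over members.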

Additional observations from a re-analysis of the deposited data

Results flagged for a closer look

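Each result here is a member whose enrichment differed between WT and siTDP43 by the interaction test and was called in opposite directions in the 2 cells, IP above its control in 1 and below it in the other. Over input, COL9A3 was below input in WT IP and above it in siTDP43 IP, a change of 4.96 on the log2 scale. In the opposite sense COL14A1 changed by -6.28, COL24A1 by -4.93 and COL5A1, with no count in siTDP43 IP, by -6.48 at most. Of these members only COL5A1 also passed in the change over IgG. In siTDP43 COL9A3 lay farther above input in IgG than in IP. Its WT fold was under the threshold without WT IP replicate 2 or 3 (-0.93 each) or WT input replicate 3 (-0.99). Over IgG, COL25A1 changed from below to above its control, by 5.27. COL23A1, COL5A2 and COL4A6 did so too, and because siTDP43 IgG had no count for them, their changes are at least 6.45, at least 4.98 and at least 3.83. COL27A1, with no count in WT IgG, and COL5A1, with none in siTDP43 IP, changed from above IgG to below it, by -13.24 at most and -7.16 at most. COL5A2 and COL24A1 rest on low counts, at most 48 and 73 in any library.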

How the results depend on the processing

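Over the 22 named genes, 96 results were recomputed 1356 times, and 1286 kept their direction and side of the threshold, 52 lost and 15 gained the call, and 3 reversed. The 3 reversals were with limma on log2(FPKM + 1), whose pseudocount shrinks low levels, for COL6A2 over input (-0.37) and for LAMB2 (-0.47) and COL4A2 (-0.42) over IgG. With limma the members called were 10 higher and 0 lower in WT IP over input (32 at an unadjusted p under 0.05 with edgeR, which called 18 and 4), beside 20.2% and 17% of all genes. They were 7 and 5 in WT IP over IgG (22.5% and 11.4%) and 6 and 0 in WT IgG over input (18.3% and 22.9%). In siTDP43 they were 3 and 0 in IP over input (14.1% and 23.3%), 4 and 3 in IP over IgG (23.2% and 8.25%) and 4 and 1 in IgG over input (14.6% and 36.5%). The change over input had 3 higher and 25 lower (24.1% and 46.7%). That over IgG had 11 higher and 19 lower (38.4% and 36.6%), where edgeR called 12 and 4. With limma there were 6 ac4C(+) members in WT (9.19%) and 2 in siTDP43 (4.2%). The change over IgG had 11 lower and 12 higher with DESeq2 (35.8% and 32.9% of all genes), and 6 and 11 with its size factors (29.2% and 31.3%). With no low-count filter 11 members were lower in siTDP43 IP over input (24.2%). Leaving out 1 library, 2 to 5 members were lower in WT IP over input, 2 without WT IP replicate 2 or WT input replicate 3. The replicate number did not pair the libraries (same-number correlations -0.0213 to 0.0269 over 40 pairs). With it as a block the counts became 15 higher and 11 lower in WT IgG over input (24.2% and 35.6% of all genes), 12 and 4 in siTDP43 IP over IgG (33.5% and 14.7%), 4 and 14 in siTDP43 IgG over input (24.3% and 40.7%) and 5 and 23 in the change over input (30.9% and 35.5%), where LAMA4 was lost (0.54, adjusted p = 0.0557). Total count scaling moved the median of all genes from -0.092 to -0.43 in siTDP43 IP over input, from -0.58 to -1.13 in siTDP43 IgG over input and from -0.19 to -0.48 in the change over input. Members with few counts in the siTDP43 IgG libraries, which had the lowest totals, have only bounds there.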
